A study of Mus musculus with 43 samples.

Results

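Chemokines are small secreted proteins that direct the migration of leukocytes, and chemokine receptors are the membrane proteins that sense them. The 62 genes described here are the protein-coding genes whose symbol begins with Ccl, Cxcl, Ccr, Cxcr or Ackr and a number, or with Cx3c, together with Xcl1 and Xcr1, out of 56748 genes in the count table (21970 of them protein-coding). Another 2 genes match by name but are pseudogenes and were left out. Of the 62 genes, 48 passed the filter on low counts and were tested, against 20218 genes tested in all. The 48 tested genes are 18 CC ligands, 9 CXC ligands, 2 CX3C or XC ligands, 8 CC receptors, 5 CXC receptors, 2 CX3C or XC receptors and 4 atypical receptors.

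Expression was measured by RNA-seq in epididymal fat, a visceral white fat depot, of male mice. The standard-diet group (7 libraries, a 10% fat diet) and the high-fat group (10 libraries, a 60% fat diet) received no drug. The other 3 groups were on the same high-fat diet and received SZ-A, the alkaloids of Ramulus Mori (Sangzhi), a mulberry twig medicine, at 200 (9 libraries), 400 (8 libraries) or 600 mg/kg/day (9 libraries). Strain, age and length of treatment are not given in the sources used. The labels number replicate biosamples and do not name animals, so a p-value reflects only how much these libraries vary, which may be technical.

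Most chemokines signal through G protein-coupled receptors named for the ligand class they bind, and several ligands share 1 receptor. Ccl2 (also known as MCP-1) and its relatives Ccl7 and Ccl12 act on Ccr2, the receptor by which monocytes leave the blood, and this route is known for bringing macrophages into obese fat. Atypical receptors (Ackr) bind chemokines without classical G protein signalling and scavenge or carry them. Cxcl12, made by stromal cells, holds Cxcr4-bearing cells in tissue. Cxcl9 and Cxcl10 are interferon-induced ligands of Cxcr3, a chemokine receptor found on T cells.

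Sequence before the transcription start was read for the members from RefSeq promoter windows (GRCm38.p6), in which 47 of the 62 members matched by symbol. Ccl2, Ccl7 and Cxcl16 were among those without a window and were not searched for any motif. The consensus of NF-kB, a transcription factor family activated in inflammation, was searched on both strands, on which matches can overlap, in the 250 bases before each start. It was found in 8 of 47 members (17.0%) and in 3.75% of 27025 windows: in the ligands Ccl9, Ccl20, Cxcl1, Cxcl2, Cxcl3 and Cxcl10 and in the receptors Ccr3 and Ackr2. The 150 bases before the start are printed 5′ to 3′ on the gene's strand for Ccl9 and Ccl6, the ligands with the highest levels on the high-fat diet, and for Cxcl1, Cxcl2 and Cxcl10, which carry the consensus near the start. Capitals mark bases in a match.
Ccl9, minus strand, chr11:83578637-83578786: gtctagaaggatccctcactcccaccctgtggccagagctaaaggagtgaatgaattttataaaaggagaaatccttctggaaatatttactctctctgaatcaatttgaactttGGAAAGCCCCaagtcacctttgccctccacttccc
Ccl6, minus strand, chr11:83593088-83593237: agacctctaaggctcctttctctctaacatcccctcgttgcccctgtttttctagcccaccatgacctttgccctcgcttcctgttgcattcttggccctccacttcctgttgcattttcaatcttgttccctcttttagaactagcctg
Cxcl1, plus strand, chr5:90891095-90891244: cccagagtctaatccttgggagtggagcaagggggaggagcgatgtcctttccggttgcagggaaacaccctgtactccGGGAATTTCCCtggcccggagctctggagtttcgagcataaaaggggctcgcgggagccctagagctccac
Cxcl2, plus strand, chr5:90903749-90903898: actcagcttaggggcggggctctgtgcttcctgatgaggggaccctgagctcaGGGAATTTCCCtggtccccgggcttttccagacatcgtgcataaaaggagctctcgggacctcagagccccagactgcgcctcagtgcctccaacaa
Cxcl10, minus strand, chr5:92348890-92349039: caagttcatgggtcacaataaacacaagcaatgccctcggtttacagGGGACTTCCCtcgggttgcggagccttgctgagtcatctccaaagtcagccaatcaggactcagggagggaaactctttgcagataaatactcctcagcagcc

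Cxcl1 and Cxcl2 hold the same run, GGGAATTTCCC, while Ccl6 holds no match in its printed bases. Ccl6 and Ccl9 both rose on the high-fat diet, and Cxcl1, Cxcl2 and Cxcl10 did not pass the test there. The motif GAGGAA, the ETS core bound by PU.1, was found in 29.8% of members and 23.1% of all windows, and GAAA-NN-GAAA, the tandem of interferon regulatory factor sites, in 6.38% and 3.04%. The AP-1 site (TGACTCA or TGAGTCA) stood in 6.38% of members and 4.43% of all windows, and the C/EBP site (TTAC-NN-AA or TTGC-NN-AA) in 21.3% and 16.6%. A match describes letters in the window and not a bound site.

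Total counts ranged from 32716294 to 44259619 per library. Marker sums of mature adipocytes (6 genes, Adipoq and Plin1 among them) reached at least 1028 normalised CPM in every library. In 4 libraries, RNA of another tissue was found: standard-diet library 4, SZ-A 400 libraries 3 and 6 and SZ-A 600 library 6. The libraries also fell into 2 sets by the percentage of counts that fell on small noncoding RNAs, with 2 standard-diet libraries and 5 of each other group in set 1 (22 in all) and 21 in set 2. The labels do not say what the sets are. With each set fitted alone, 34 of 36 calls of the members described below kept their direction in both sets, and the exceptions were those of Ccl28 at SZ-A 600 and in the dose trend (log2 values of -0.46 and -0.40 in set 1, 3.96 and 3.82 in set 2). The 36 calls came from the fit over both sets, which favours a shared direction, and the share for other genes was not counted. The size of the values differed by set. For diet, 3 log2 values were larger over all libraries than in set 1 or set 2: Ccl6 (2.35, 2.11 and 1.76), Ccl9 (3.05, 2.66 and 2.57) and Cxcr4 (1.547, 1.405 and 1.395). That of Ccl25 was more negative (-0.944, -0.745 and -0.726). The other diet values described lay between those of the sets. Levels by set are given for Ccl4, Ccl8, Ccl9, Ccl25, Cxcl10 and Cxcl16.

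Levels were compared between genes only as the deposited FPKM, which is per gene length. Levels and shares with ± are mean and standard deviation, and log2 changes with ± carry the standard error. In the standard-diet group the highest means were those of Ccl6 (42.5 ± 20.9 FPKM), Cxcl12 (38.3 ± 11.1 FPKM) and the eosinophil attractant Ccl11 (32.1 ± 12.0 FPKM). Ccl6 and Cxcl12 differed there by less than their standard deviations. On the high-fat diet Ccl6 had 210.1 ± 133.9 FPKM and Ccl9, the other member of this Ccr1-binding rodent pair, 146.5 ± 94.6 FPKM, followed at a distance by Ccl11 (46.4 ± 5.35 FPKM). Ccl6 and Ccl9 together made 24.0 ± 8.62% of the summed FPKM of all ligands in the standard-diet group and 55.8 ± 16.7% in the high-fat group. Their share was 52.3 ± 14.4%, 43.1 ± 20.9% and 48.0 ± 13.9% at SZ-A 200, 400 and 600. Among receptors, Ackr3, the scavenger of Cxcl12, had the highest mean on the standard diet (14.6 ± 4.96 FPKM) and Cxcr4 on the high-fat diet (17.8 ± 6.81 FPKM), and the next on the high-fat diet, Ackr3 (13.3 ± 3.32 FPKM), lay within that spread.

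**Figure D1:**
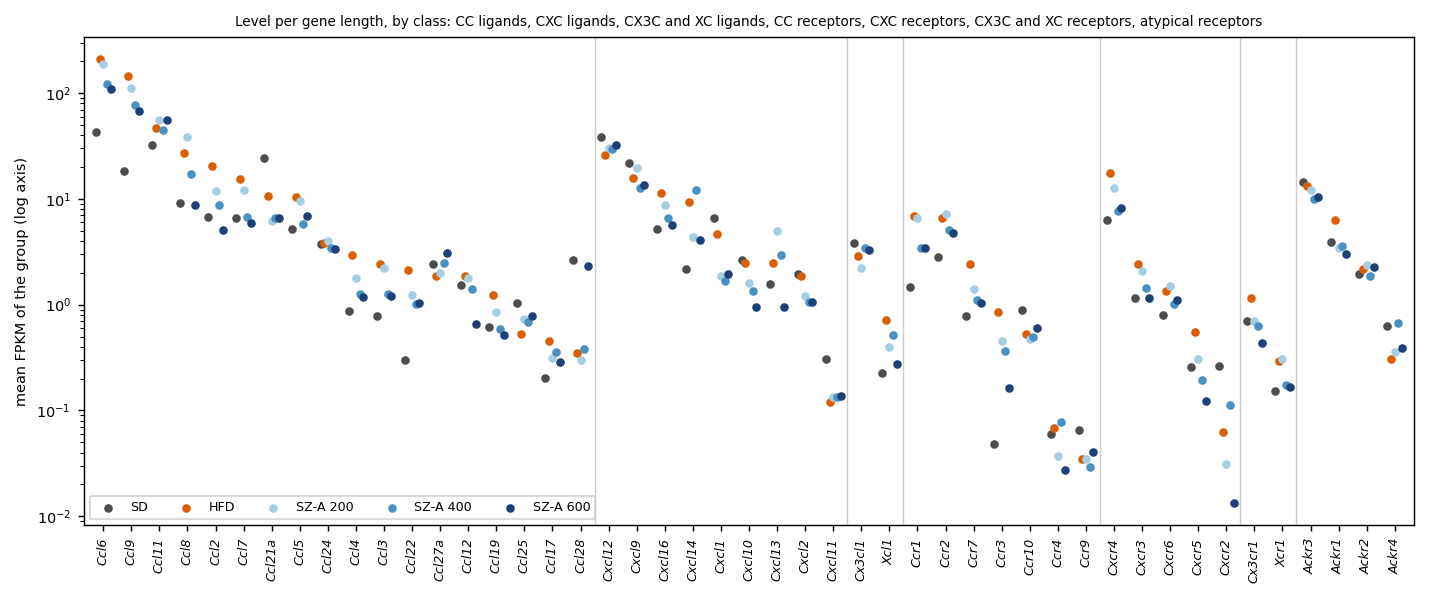
Mean FPKM of each group (points, log axis) for 47 tested genes, ordered within each class by the level in the high-fat group (HFD); SD is the standard-diet group. Ccl6 leads in all 5 groups, with 42.5 FPKM on the standard diet and 210.1 FPKM on the high-fat diet.

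On the high-fat diet against the standard diet, 15 of the 48 tested members rose and 2 fell, at an adjusted p under 0.05 from edgeR over all tested genes. Over all genes tested, 18.4% were called higher and 13.3% lower, and the members' shares were 31.2% and 4.17%. The median log2 fold change was 0.78 over the members and -0.05 over all genes tested. Among the members that rose were the CC ligands Ccl2, Ccl4, Ccl6, Ccl7, Ccl9 and Ccl22, the CC receptors Ccr1, Ccr2, Ccr3 and Ccr7, and Cxcl14, Cxcl16, Cxcr4 and Ackr1, and those that fell were Ccl25 and Ccl28. In bulk tissue, a change in the number of cells of a type and a change in RNA per cell cannot be told apart.

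**Figure D2:**
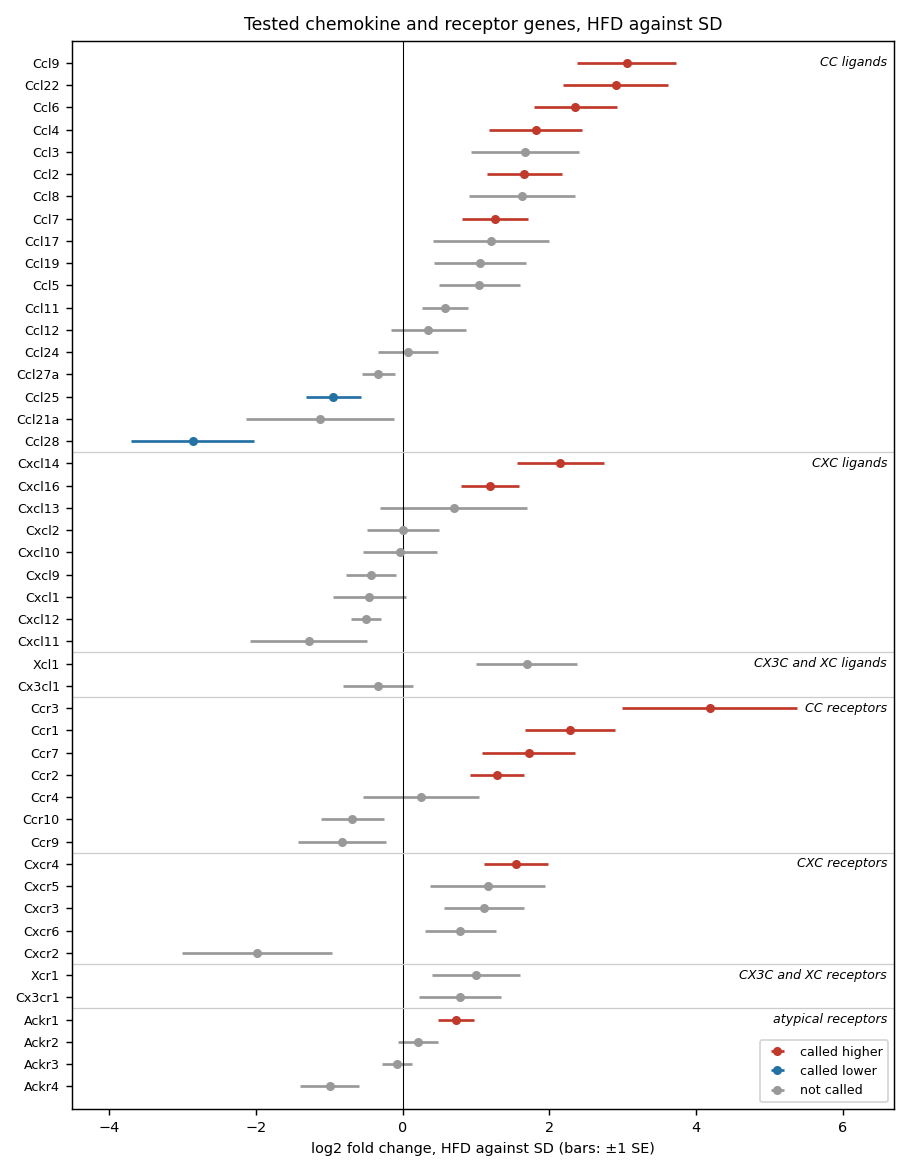
Log2 fold change of 47 tested genes in the high-fat group against the standard-diet group (points, bars 1 standard error), by class; red and blue points are genes called higher or lower. Among CC receptors Ccr3 has the highest value, 4.18, while most CXC ligands lie near or below 0.

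Among CC ligands, Ccl9 had a lowest, median and highest level of 25.1, 38.5 and 115.5 normalised CPM on the standard diet and of 63.1, 400.0 and 850.8 on the high-fat diet. CPM normalised with TMM factors (normalised CPM, counts scaled to library depth) are the scale of all levels from here on. The groups overlapped only through high-fat libraries 8 and 10, and Ccl9 rose by a log2 fold change of 3.05 ± 0.68 (± standard error, adjusted p = 0.000963). The overlap lay between library sets: in set 1 the standard-diet libraries had 97.3 and 115.5 and the lowest high-fat library 478.8, and in set 2 the highest standard-diet library had 38.8 and the lowest high-fat library 63.1. Ccl6 went from 44.7, 63.3 and 134.3 to 76.7, 321.5 and 763.9 (lowest, median and highest), with 8 of 10 high-fat libraries above every standard-diet library and a log2 fold change of 2.35 ± 0.56 (adjusted p = 0.00187).

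The Ccr2 ligands rose in part. Ccl2 had 3.37, 6.40 and 15.0 normalised CPM on the standard diet and 8.22, 23.1 and 43.3 on the high-fat diet. All 10 high-fat libraries lay above the standard-diet median and 8 above the highest standard-diet library, and the log2 fold change was 1.66 ± 0.51 (adjusted p = 0.0122). Ccl7 rose by 1.26 ± 0.45 on the log2 scale (adjusted p = 0.0304), a call that ended without any 1 of standard-diet libraries 3, 4 and 5 or high-fat libraries 2 and 4 (lowest value 1.00) and with library set as a term (1.00, adjusted p = 0.0615). Ccl12 (0.35 ± 0.51, adjusted p = 0.621) did not pass the test, nor did Ccl8, a neighbouring gene of the same family (1.63 ± 0.72, adjusted p = 0.0784).

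Ccl22 is a ligand of Ccr4, a chemokine receptor of T helper and regulatory T cells. Ccl22 was at 0 to 1.58 normalised CPM on the standard diet and 0.545 to 11.2 on the high-fat diet. It rose by 2.90 ± 0.71 (adjusted p = 0.00229), with 8 of 10 high-fat libraries above every standard-diet library. Its relative Ccl17 was at most 0.584 in either group and did not pass the test. Ccl4, an attractant of macrophages and T cells, went from a median of 0.606 to 2.01 and rose by 1.81 ± 0.64 (adjusted p = 0.0274), a call that ended without standard-diet library 5 or high-fat library 2. Its medians on the standard and the high-fat diet were 0.536 and 2.46 in set 1 and 0.640 and 0.791 in set 2, and neither set alone passed the test (2.24, adjusted p = 0.144, and 1.15, adjusted p = 0.353). Its relatives Ccl3 (1.67 ± 0.74, adjusted p = 0.0764) and Ccl5 (1.04 ± 0.55, adjusted p = 0.140) did not pass the test.

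Ccl11, the most abundant eosinophil attractant here, had 34.1 ± 13.0 normalised CPM on the standard diet and 50.9 ± 5.96 on the high-fat diet (log2 fold change 0.58 ± 0.32, adjusted p = 0.154). Ccl24, which shares its receptor Ccr3, had 4.81 ± 1.55 and 5.06 ± 2.12. Neither passed the test. Ccl21a, a Ccr7 ligand of lymphatic vessels, ranged from 0 to 85.8 on the standard diet and from 0 to 43.7 on the high-fat diet; Ccl21b and Ccl21d, its near-identical copies, and the pair Ccl27a and Ccl27b share reads that counting could split, so their values are uncertain. Ccl19, the other Ccr7 ligand, had medians of 0.427 and 0.582 and likewise has pseudogene copies.

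Among CC receptors, Ccr1, the receptor of Ccl6 and Ccl9, had 1.48, 3.27 and 10.8 normalised CPM (lowest, median and highest) on the standard diet and 2.67, 18.9 and 48.4 on the high-fat diet. Of the high-fat libraries, 7 of 10 lay above every standard-diet library, and Ccr1 rose by 2.28 ± 0.61 (adjusted p = 0.00460). The monocyte receptor Ccr2 rose by 1.28 ± 0.37 (adjusted p = 0.00803), with medians of 19.1 and 48.2 and 8 of 10 high-fat libraries above every standard-diet library.

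Ccr3, the eosinophil receptor, was low: its standard-diet median was 0 and its highest standard-diet library 0.867 normalised CPM, against a median of 2.82 and a highest of 6.18 on the high-fat diet. It rose by 4.18 ± 1.19 (adjusted p = 0.00735), and by 6.17 without standard-diet library 7. The eosinophil markers Siglecf, Prg2, Epx and Il5ra summed to at most 1.56 and 4.27 normalised CPM in the 2 groups, and Epx was at 0 in 37 of the 43 libraries. Ccr7, which guides dendritic cells and lymphocytes to lymph nodes, rose by 1.72 ± 0.64 (adjusted p = 0.0370). That call ended without any 1 of standard-diet libraries 1, 2, 3, 5, 6 and 7 or high-fat libraries 3, 4 and 7, and the value was 2.48 without standard-diet library 4. Ccr4, Ccr9 and Ccr10 did not pass the test.

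CXC genes were mixed. Cxcl14, an epithelial and stromal chemokine, had 1.92, 4.71 and 6.75 normalised CPM on the standard diet and 1.52, 17.9 and 34.8 on the high-fat diet, with 8 of 10 high-fat libraries above every standard-diet library, and rose by 2.15 ± 0.59 (adjusted p = 0.00537). Cxcl16, a membrane-bound ligand and scavenger receptor of macrophages, rose by 1.19 ± 0.39 (adjusted p = 0.0194), and its receptor Cxcr6 did not pass the test (0.79 ± 0.49, adjusted p = 0.212). Cxcr4 rose by 1.55 ± 0.43 (adjusted p = 0.00662), from a median of 9.64 to 34.8.

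Its ligand Cxcl12 lay the other way: 9 of 10 high-fat libraries were below the standard-diet median, at 216.6 ± 41.8 against 307.2 ± 89.3 normalised CPM (log2 fold change -0.50 ± 0.20, adjusted p = 0.0543). Cxcl12 missed the threshold in this fit and passed it, among other settings, with DESeq2 (-0.55, adjusted p = 0.0287), without the libraries with RNA of another tissue (-0.64, adjusted p = 0.00532) and in set 1 alone (-0.82, adjusted p = 0.00887). The interferon-induced ligands did not pass the test: Cxcl9 had 64.7 ± 23.2 and 47.9 ± 21.5, Cxcl10 had 5.80 ± 3.37 and 5.65 ± 4.68, and Cxcl11 had 1.12 ± 1.11 and 0.461 ± 0.381 on the standard and the high-fat diet. Their receptor Cxcr3 likewise did not pass it (1.10 ± 0.54, adjusted p = 0.113).

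The neutrophil attractants Cxcl1 (-0.45 ± 0.50, adjusted p = 0.499) and Cxcl2 (0.00 ± 0.48, adjusted p = 0.995) did not pass the test either. Their receptor Cxcr2 was at most 0.961 normalised CPM in every high-fat library and reached 4.51 in standard-diet library 6, the library with the highest neutrophil marker sum of its group (72.0, next 18.9). Its next highest level, 2.20, was in SZ-A 400 library 3, which had the lowest neutrophil sum of all libraries (4.94), and SZ-A 200 library 1 and SZ-A 400 library 6 had sums of 65.9 and 56.2 with Cxcr2 at 0.124 and 0. The neutrophil marker Ly6g was at 0 in 39 of 43 libraries. The part of neutrophil content in these values was not tested.

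Of the atypical receptors, Ackr1, a chemokine carrier of venous endothelium and red cells, rose by 0.73 ± 0.24 (adjusted p = 0.0214). All 10 high-fat libraries lay above the standard-diet median and 8 above the highest standard-diet library, with lowest, median and highest levels of 3.46, 4.45 and 8.29 on the standard diet and 6.06, 8.80 and 11.7 on the high-fat diet. Of the venous endothelial markers, Selp (0.02 ± 0.30) and Vcam1 (0.79 ± 0.32, adjusted p = 0.0562) did not pass the test and Nr2f2 fell (-1.08 ± 0.29, adjusted p = 0.00474). Ackr2, which degrades inflammatory CC chemokines, and Ackr3 did not pass the test (0.21 ± 0.27 and -0.08 ± 0.21), nor did Ackr4, a scavenger of Ccl19, Ccl21 and Ccl25 (-0.99 ± 0.40, adjusted p = 0.0545), although 9 of 10 high-fat libraries were below the lowest standard-diet library.

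In the smaller classes, Cx3cl1 (fractalkine), Cx3cr1, Xcl1 and Xcr1 did not pass the test, with log2 fold changes of -0.34, 0.78, 1.69 and 1.00. Cx3cr1, a monocyte and macrophage receptor, had medians of 0.881 and 5.08 normalised CPM, and standard-diet library 4 had 12.3. Without the libraries with RNA of another tissue it was called higher (1.79, adjusted p = 0.00659). The XC pair was low, with Xcl1 at most 0.833 and Xcr1, a receptor of cross-presenting dendritic cells, at most 2.44 in either group.

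Of the members that fell, Ccl25 (a thymus and gut chemokine) had -0.94 ± 0.37 (adjusted p = 0.0494), and its level moved with the library set. In set 1 it was 3.47 and 3.99 normalised CPM in the standard-diet libraries and 1.49 to 2.99 in the high-fat libraries, and in set 2 it was 8.18 to 10.5 and 2.89 to 6.82, so the groups did not overlap within either set. The call ended without any 1 of standard-diet libraries 3 to 7 or high-fat libraries 1 to 6 (values from -1.08 to -0.84). Ccl28, an epithelial chemokine, had -2.86 ± 0.84 (adjusted p = 0.00906) and rested on standard-diet library 4, with 73.5 normalised CPM where the next library had 5.07. Without that library its log2 fold change was -0.39 (adjusted p = 0.717).

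**Figure D3:**
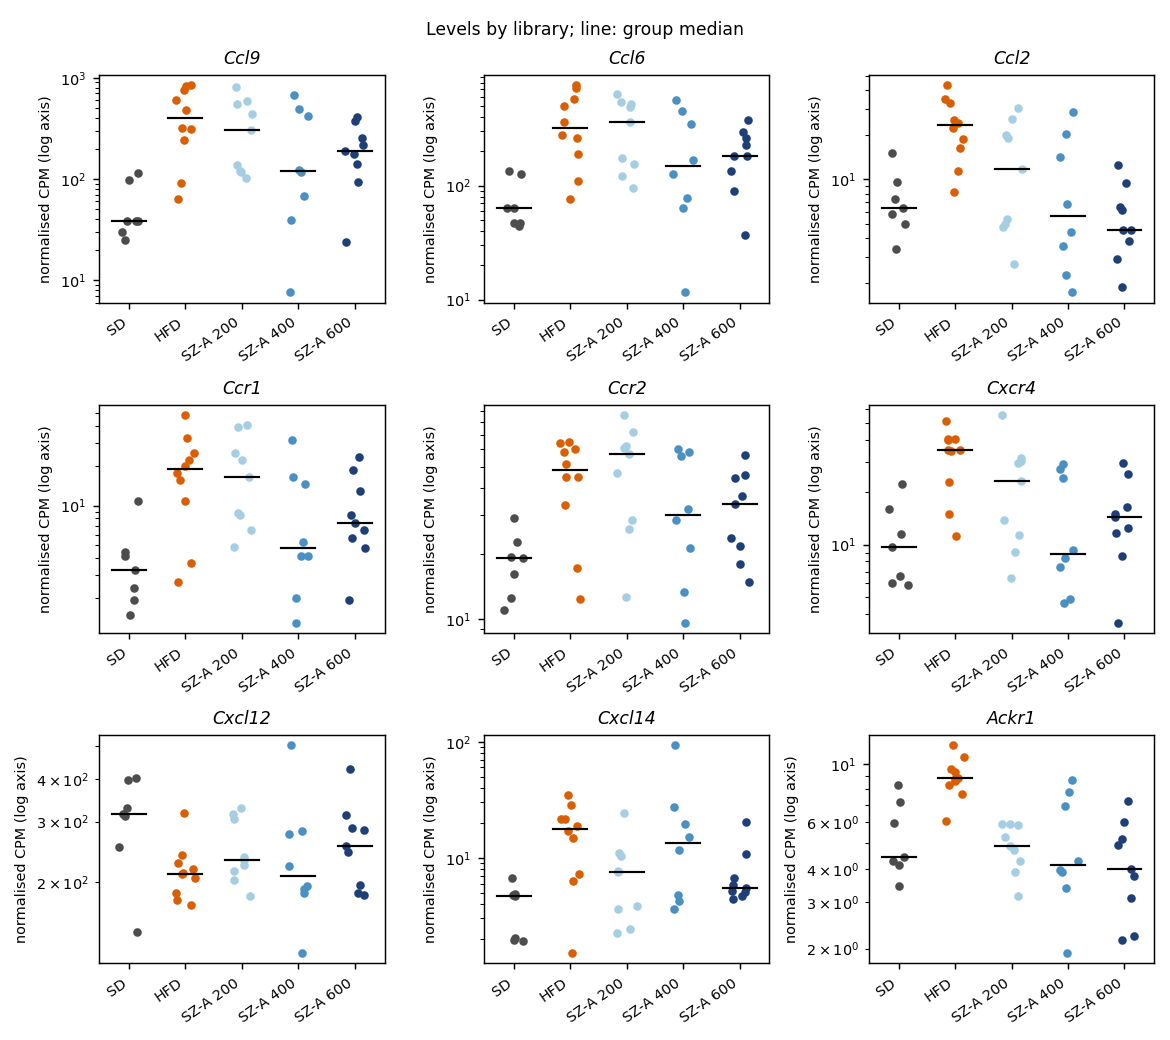
Normalised CPM (log axis) of 9 members in each library (points), by group, with the group median as a line; SD is the standard-diet and HFD the high-fat group. For Ccl9 and Ccl6 8 of 10 high-fat libraries lie above every standard-diet library, and for Ackr1 every SZ-A 200 library lies below every high-fat library.

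Macrophage markers moved with these genes. Of 13 monocyte and macrophage markers, 9 rose on the high-fat diet, and no marker was at 0 in any library. Their summed level was 377.5 to 773.2 normalised CPM in standard-diet libraries (median 486) and 723.1 to 6517 in high-fat libraries (median 4414). High-fat libraries 8 and 10, lowest in Ccl9, were also lowest in the marker sum (726.3 and 723.1). In fibroblast and preadipocyte markers, 4 of 7 rose, and the sum was 999 to 4258 and 1107 to 7854. The part of these cell types in the members' changes was not tested.

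**Figure D4:**
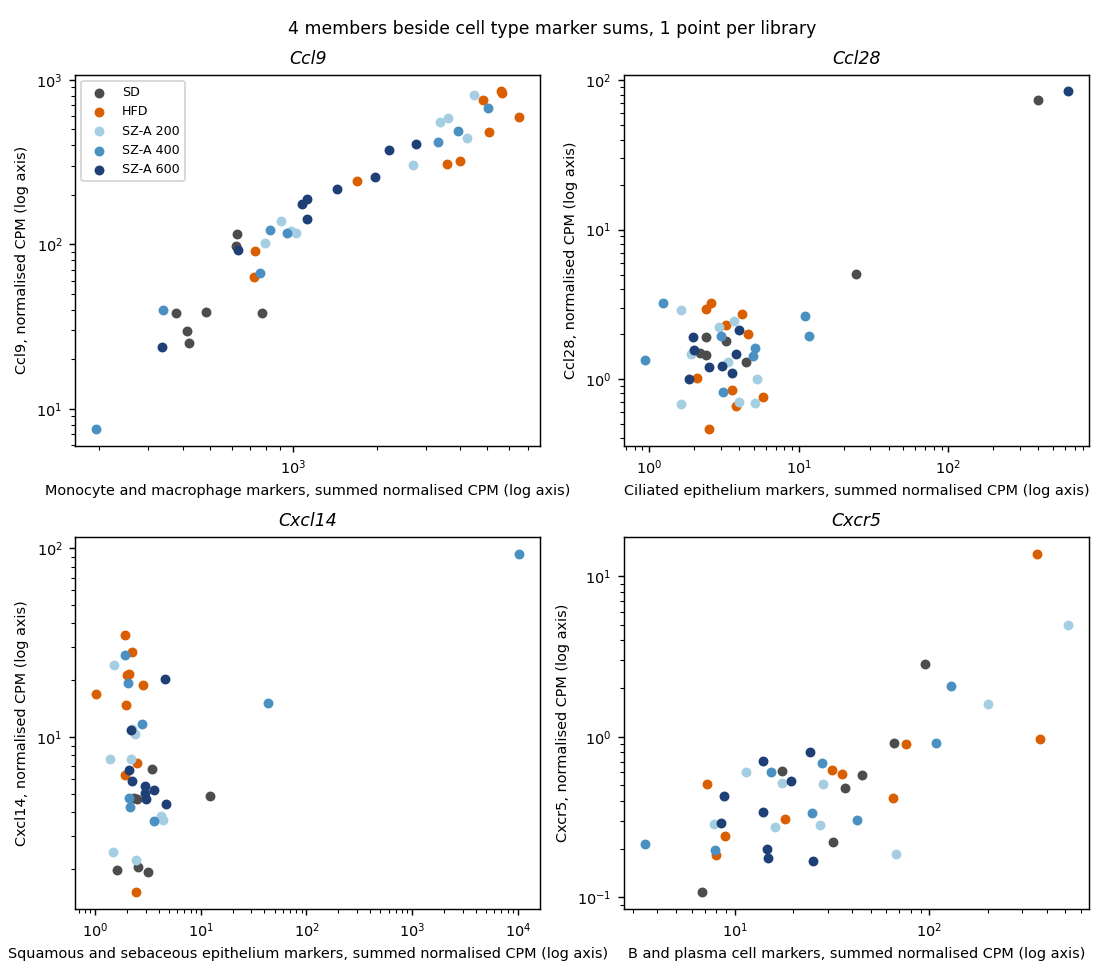
Level of 4 members against summed markers of a cell type in each library, both as normalised CPM on log axes; colours are groups. Ccl9 is lowest in libraries with low macrophage markers, Ccl28 is high in the 2 libraries with high ciliated epithelium markers (73.5 and 84.1), Cxcl14 is 93.1 in the library with squamous markers, and Cxcr5 is highest in high-fat library 7.

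The size of the diet result differed between library sets. In set 1 alone 14 members were called with 2 standard-diet libraries, and in set 2 alone edgeR called none, with 9 at an unadjusted p under 0.05. Set 2 without standard-diet library 4 gave 5 calls (Ccl6, Ccl9, Ccr1 and Cxcr4 higher, Ccl25 lower), and 16 members were called with the set as a term over all libraries. DESeq2 called 21 members and limma 17.

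At SZ-A 200 against the high-fat group no member was called by edgeR, DESeq2 or limma. In edgeR 3 of 48 members had an unadjusted p under 0.05, beside 6.91% of all genes tested, so the members did not stand out. Over all genes tested, 0.00989% were called higher and 0% lower. Ackr1 had the smallest p: all 9 SZ-A 200 libraries (3.15, 4.91 and 5.94 normalised CPM, lowest, median and highest) lay below all 10 high-fat libraries, with a log2 fold change of -0.87 ± 0.23 (adjusted p = 0.382). It was called lower when only these 2 groups were fitted. Cxcl1 (-1.30 ± 0.48, adjusted p = 0.550) and Cxcl14 (-1.08 ± 0.51, adjusted p = 0.712) were the others, and Ccl2 had a median of 11.7 against 23.1 (-0.78 ± 0.45, adjusted p = 0.781).

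At SZ-A 400, Ackr1 alone was called, lower by a log2 fold change of -0.81 ± 0.23 (adjusted p = 0.0473). Over all genes tested, 2.46% were called higher and 0.406% lower. All 8 SZ-A 400 libraries lay below the high-fat median of 8.80, with a range of 1.93 to 8.66. The call ended without any 1 of high-fat libraries 1 to 7 or SZ-A 400 libraries 1, 3, 6, 7 and 8 (values from -0.96 to -0.69), and without the libraries with RNA of another tissue (-0.64, adjusted p = 0.410). Cxcr4 (-1.18 ± 0.41, adjusted p = 0.106) was below the high-fat median in all 8 libraries, and Ccl2 (-1.22 ± 0.48, adjusted p = 0.157) in 7 of 8. Cxcl14 reached 93.1 in SZ-A 400 library 3, which had 10350 normalised CPM of squamous and sebaceous markers where no other library had above 43.6.

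At SZ-A 600, 7 of 48 members fell (14.6%) and 2 rose (4.17%). Over all genes tested, 5.12% were called higher and 6.47% lower, and the median log2 fold change was -1.02 over the members and 0.06 over all genes. Ccl2, Ccl7, Ccl12, Cxcl16, Cxcr5 and Ackr1 were among those that fell, and those that rose were Ccl27a and Ccl28. Leaving out any 1 of high-fat libraries 1 to 6 or SZ-A 600 libraries 2, 3, 4, 6, 7 and 9 left 2 to 5 calls. In set 1 alone 11 members were called and in set 2 alone none by edgeR, with 5 at an unadjusted p under 0.05. DESeq2 called 12 and limma 5.

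Ccl2 was lower by a log2 fold change of -2.02 ± 0.47 (adjusted p = 0.00906). Its lowest, median and highest levels at SZ-A 600 were 1.86, 4.55 and 12.5 normalised CPM, and 7 of 9 libraries lay below the lowest high-fat library (8.22). The standard-diet median was 6.40. This call held without each library in turn (values from -2.26 to -1.89) and was lost in set 2 alone (-1.37, adjusted p = 0.329). Ackr1 was lower by -1.06 ± 0.23 (adjusted p = 0.00640), with 8 of 9 libraries below the lowest high-fat library, and its call held without each library in turn (values from -1.20 to -0.95). Of the venous markers, Nr2f2 rose at SZ-A 600 (0.88 ± 0.28, adjusted p = 0.0344), and the part of venous cells in the level of Ackr1 was not tested.

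The other Ccr2 ligands that fell were Ccl7 (-1.36 ± 0.42, adjusted p = 0.0303) and Ccl12 (-1.52 ± 0.49, adjusted p = 0.0399). All 9 SZ-A 600 libraries lay below the high-fat median of Ccl7 and 8 of 9 below that of Ccl12, whose levels were at most 0.756 normalised CPM at SZ-A 600 and 2.39 on the high-fat diet. The Ccl7 call ended without any 1 of high-fat libraries 2 and 4 or SZ-A 600 libraries 3, 6 and 7, and that of Ccl12 without any 1 of high-fat libraries 2, 3, 4 and 8 or SZ-A 600 libraries 1, 2, 3, 4, 6, 7 and 9. Their receptor Ccr2 had -0.46 ± 0.33 (adjusted p = 0.369), with a median of 33.7 against 48.2.

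Cxcl16 was lower by -1.05 ± 0.36 (adjusted p = 0.0496). All 9 SZ-A 600 libraries lay below the high-fat median, with medians of 15.2 against 33.0. The fall lay mainly in set 1, with medians of 46.8 on the high-fat diet and 15.2 at SZ-A 600 (log2 fold change -1.53). In set 2 the medians were 16.5 and 18.4 (-0.28), so there the SZ-A 600 median was the higher. The call ended without any 1 of high-fat libraries 1 to 7 or SZ-A 600 libraries 2, 3, 4, 5, 6, 7 and 9 (from -1.14 to -0.93). The macrophage ligands Ccl9 (-1.12 ± 0.57, adjusted p = 0.181) and Ccl6 (-0.95 ± 0.49, adjusted p = 0.190) did not pass the test, with medians of 188.9 and 182.9 that lay above their standard-diet medians of 38.5 and 63.3. Of the 13 macrophage markers, 8 fell, with a summed level of 336.5 to 2762 and a median of 1125. Of the 7 fibroblast and preadipocyte markers, 4 fell, with a sum of 832.6 to 3477 and a median of 1877 against 5667 on the high-fat diet. The part of either cell type in these changes was not tested.

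Cxcr5, the B cell follicle receptor, was lower by -2.18 ± 0.74 (adjusted p = 0.0493), a value set by high-fat library 7 with 13.7 normalised CPM, where the next high-fat library had 0.967. Without it the log2 fold change was -0.35 (adjusted p = 0.722), and with DESeq2 it was -0.33. The call also ended without any 1 of high-fat libraries 1 to 6 or SZ-A 600 libraries 1 to 7 and 9. The 7 B and plasma cell markers summed to 357.9 in high-fat library 7, to 371.7 in high-fat library 4 and to at most 76.1 in the other high-fat libraries, and 5 of the 7 were lower at SZ-A 600. Cxcl13, the ligand of Cxcr5, was highest in SZ-A 200 library 4 (22.1), SZ-A 400 library 5 (20.5), high-fat library 7 (16.8), SZ-A 200 library 1 (14.3) and SZ-A 200 library 8 (9.51), and high-fat library 4 had 5.37. B cell markers summed to 200.1, 128.5, 67.3 and 517 in those 4 SZ-A libraries, so Cxcl13 and the marker sum did not follow the same order. Cxcl13 did not pass any test.

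Ccl27a, an epithelial and skin chemokine, rose by 0.68 ± 0.21 (adjusted p = 0.0331), with all 9 SZ-A 600 libraries above the high-fat median of 3.92. The call ended without any 1 of high-fat libraries 1 to 6 or SZ-A 600 libraries 4, 6 and 7, and its level was highest in SZ-A 600 library 6 (14.3). Without the libraries with RNA of another tissue it was 0.48 (adjusted p = 0.0799). Ccl28 rose by 2.64 ± 0.81 (adjusted p = 0.0298), with 84.1 normalised CPM in SZ-A 600 library 6 and 2.11 in the next. Without that library its log2 fold change was -0.21 (adjusted p = 0.864), and the call was also lost without high-fat library 1 or 5. Standard-diet library 4 and SZ-A 600 library 6, the 2 high libraries of Ccl28, had ciliated epithelium markers summed to 398.4 and 633.5, with Foxj1 at 0 in 8 other libraries, and also the highest Cx3cl1 of their groups (46.4 and 56.0). SZ-A 400 library 6 had a similar Cx3cl1 level (45.6) with a ciliated marker sum of 11.7 and Ccl28 at 1.95.

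Over the 4 high-fat groups, a linear trend in SZ-A dose called 10 members lower (20.8%) and 2 higher (4.17%). Over all genes tested, 6.82% were called higher and 7.86% lower, and the median fitted log2 change from 0 to 600 mg/kg/day was -0.99 over the members and 0.06 over all genes. The trend shares its high-fat group with the comparisons above and is not independent of them. It called the 9 members called at SZ-A 600 and in addition Ccl8, Cxcl10 and Cxcr4. Without SZ-A 600 library 3, 6, 7 or 9 the count was 7, 4, 6 and 7, and in set 2 alone edgeR called none, with 7 at an unadjusted p under 0.05.

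**Figure D5:**
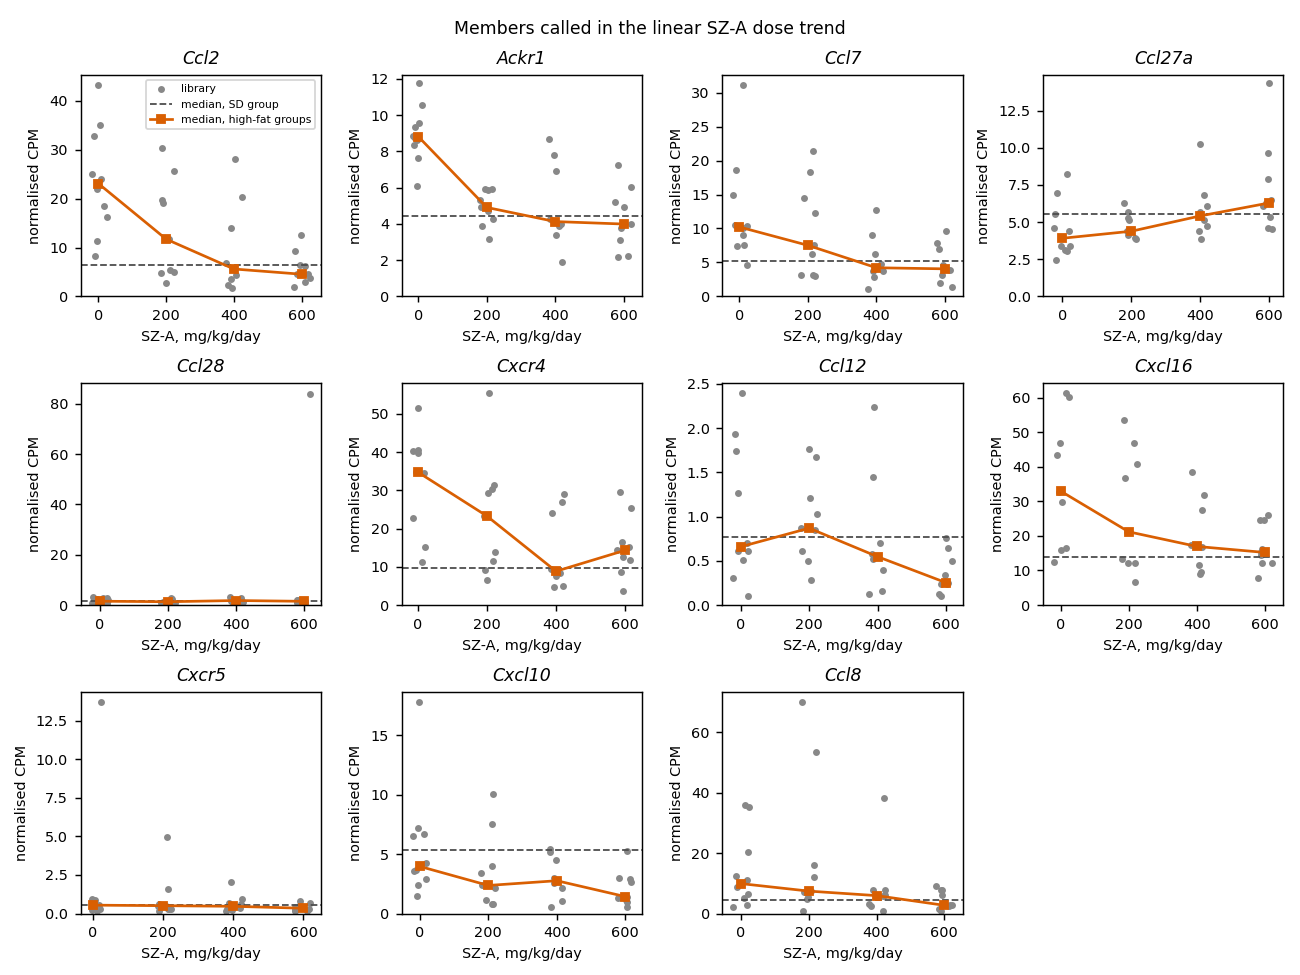
Normalised CPM of 11 members called in the dose trend against SZ-A dose in the high-fat groups, with libraries as grey points, group medians as orange squares and the standard-diet median as a dashed line. The Ccl2 median goes from 23.1 at dose 0 to 4.55 at 600 mg/kg/day, while the Ccl28 panel shows a single high library at 600 mg/kg/day.

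Ccl2 had medians of 23.1, 11.7, 5.62 and 4.55 normalised CPM at 0, 200, 400 and 600 mg/kg/day and a fitted change of -1.96 ± 0.45 (adjusted p = 0.00595). Those of Cxcr4 were 34.8, 23.3, 8.83 and 14.3 (-1.20 ± 0.37, adjusted p = 0.0290). Its medians at 400 and 600 mg/kg/day differed by less than the standard deviation of either group. Ackr1 had 8.80, 4.91, 4.13 and 3.99 (-0.93 ± 0.22, adjusted p = 0.00640). Trend calls of Ccl27a and Ccl28 ended without SZ-A 600 library 6, and that of Cxcr4 without SZ-A 600 library 6 or 7.

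Ccl8, which tissue macrophages make, had a fitted change of -1.80 ± 0.63 (adjusted p = 0.0475) with medians of 9.90, 7.43, 5.93 and 2.72. SZ-A 200 departed from that order: its mean was 19.7 ± 24.5 against 14.1 ± 12.6 on the high-fat diet, and SZ-A 200 libraries 7 and 8 (53.4 and 70.0) lay above every high-fat library (highest 36.0). In set 1 the Ccl8 medians were 20.3 on the high-fat diet and 7.43 at SZ-A 200, and in set 2 they were 5.05 and 29.5, the opposite direction. The call ended without any 1 of high-fat libraries 1 to 6, SZ-A 200 libraries 2, 4, 7 and 8, SZ-A 400 libraries 1, 3, 4, 7 and 8, or SZ-A 600 libraries 3 to 7 and 9. Cxcl10 had -1.33 ± 0.46 (adjusted p = 0.0473) with medians of 3.96, 2.36, 2.76 and 1.42, all below its standard-diet median of 5.36. By set, its standard-diet and high-fat medians were 2.45 and 3.68 in set 1 and 7.20 and 4.24 in set 2. In set 1 the high-fat median of Cxcl10 was thus the higher. Its call ended without any 1 of high-fat libraries 2, 3, 4, 6, 7 and 10, SZ-A 200 libraries 2, 4, 7, 8 and 9, SZ-A 400 libraries 1, 3 and 4, or SZ-A 600 libraries 1 to 7 and 9. The calls of Ccl12 (without high-fat library 2, 3 or 8 or SZ-A 600 library 3, 6, 7 or 9), Cxcl16 (without high-fat library 2, 3, 4 or 5 or SZ-A 600 library 3, 5, 7 or 9) and Cxcr5 (-0.52 without high-fat library 7; also without SZ-A 600 library 2, 3, 5, 6, 7 or 9) ended likewise.

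Set side by side, members that rose on the high-fat diet and were lower in the dose trend included Ackr1, Ccl2, Ccl7, Cxcl16 and Cxcr4. Another 9 rose on the high-fat diet and were not called in the trend: Ccl4, Ccl6, Ccl9, Ccl22, Ccr1, Ccr2, Ccr3, Ccr7 and Cxcl14. Ccl8, Ccl12, Cxcl10 and Cxcr5 were called in the trend and not for diet. These comparisons share the high-fat libraries, and a difference between the diet and the dose effect was not tested.

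Ligands and receptors that bind each other did not always change together. For diet, Ccl6 and Ccl9 were called with Ccr1, and Ccl2 and Ccl7 with Ccr2. Ccl22 was called and Ccr4 was not, Ccr3 was called and Ccl11 and Ccl24 were not, and Cxcr4 was called higher while Cxcl12 did not pass the test. At SZ-A 600, Ccl2, Ccl7 and Ccl12 were called lower without Ccr2, and Ccl3, Ccl4 and Ccl5 did not pass the test (-0.98, -1.31 and -0.59). Whether a ligand's change differs from its receptor's was not tested.

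Some members, but not all, lie in 7 runs of at least 3 genes less than 1 Mb apart, in the coordinates of the files. Those coordinates did not match the GRCm38 annotation, although the labels name mm10, so they are not comparable with the promoter positions above. On chromosome 11 from 81926397 to 82196516, Ccl2, Ccl7, Ccl11, Ccl12, Ccl8 and Ccl1 hold 5 tested genes, of which 2 rose for diet, 3 fell at SZ-A 600 and 4 fell in the trend. In the next run, from 83416604 to 83555509, Ccl5, Ccl9, Ccl6, Ccl3 and Ccl4 hold 3 that rose for diet and none called in a dose comparison. A run on chromosome 9 holds the receptors Ccr1, Ccr2 and Ccr3, which rose for diet, beside Ccr9, Cxcr6 and Xcr1, which were not called. Cxcl1, Cxcl2, Cxcl3, Cxcl5 and Cxcl15 on chromosome 5 hold 2 tested genes and no call. Over all genes tested, 18.4% were called higher for diet, 6.47% lower at SZ-A 600 and 7.86% lower in the trend. Each run holds few tested genes, and a difference between runs was not tested.

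Of the 48 tested members, 22 were called in at least 1 comparison and 26 in none. The share of all genes called in at least 1 comparison was not counted, so these counts do not set the members apart from other genes. The 14 members not tested were 10 ligands and 4 receptors, with 2 to 215 counts summed over all 43 libraries: Ccl1, Ccl20, Ccl21b, Ccl21d, Ccl26, Ccl27b, Cxcl3, Cxcl5, Cxcl15, Cxcl17, Ccr1l1, Ccr6, Ccr8 and Cxcr1. Ccr1l1, with 215 counts and no more than 22 in a library, was called higher for diet where it was let through the filter and may share reads with Ccr1.

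Of 46 genes of receptor signalling, 32 rose on the high-fat diet (69.6%, beside 18.4% of all genes tested) and 2 fell (4.35%, beside 13.3%), with a median log2 fold change of 1.07, where the median over all genes was -0.05. Dock2, which drives leukocyte migration through Rac, rose by 3.56 ± 0.64 (adjusted p = 0.000240). Ptk2b, of the focal adhesion kinase family, rose by 0.91 ± 0.16 (adjusted p = 0.000220), while Jak2 (-0.41 ± 0.12) and Rgs16 (-1.24 ± 0.47) fell. At SZ-A 600, 10 fell (21.7%, beside 6.47% of all genes) and none rose, led by the receptor kinase Grk2 (-0.67 ± 0.13, adjusted p = 0.00415) and the adaptor Pxn (-0.45 ± 0.11, adjusted p = 0.0114), and the trend called 23 of 46 lower, beside 7.86% of all genes. The median over the list was -0.87 in each.

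Of 17 genes that cut, bind or present chemokines, 7 rose for diet (41.2%, beside 18.4% of all genes) and 5 fell at SZ-A 600 (29.4%, beside 6.47%). The heparan sulphate carriers Sdc3 (2.19 ± 0.41) and Sdc1 (2.32 ± 0.44) rose with diet. At SZ-A 600 the sheddase Adam17 (-1.12 ± 0.24, adjusted p = 0.00612), which releases membrane-bound Cx3cl1, and Sdc3 (-1.40 ± 0.36, adjusted p = 0.0144) fell. Of 12 chemokine-like genes outside the naming rule, 5 rose (41.7%) and 2 fell (16.7%) for diet and 3 fell at SZ-A 600 (25.0%), and the share that fell for diet is near the 13.3% of all genes. Platelet factor 4 (Pf4, a CXC chemokine by structure) rose for diet (1.55 ± 0.43, adjusted p = 0.00643) and fell at SZ-A 600 (-1.22 ± 0.39, adjusted p = 0.0371), with medians of 16.6, 57.7 and 20.9 normalised CPM in the standard-diet, high-fat and SZ-A 600 groups. Ppbp fell for diet (-1.33 ± 0.45), and the atypical receptor Ccrl2 rose for diet (1.07 ± 0.25) and had -0.09 ± 0.22 at SZ-A 600 (adjusted p = 0.829).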

How the data were processed

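RNA-seq of 43 libraries was analysed from the table of read counts and the table of FPKM values (fragments per kilobase of gene, scaled to depth) that the authors deposited. Libraries were made with a strand-specific dUTP kit, per the labels' protocols. The genome was mm10, per the submitters' processing notes, and the aligner, counter and strand setting are not given in the sources used.

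The deposited counts were tested with edgeR 4.0.16 in R 4.3.3 (TMM factors, filterByExpr by group, robust quasi-likelihood test) in 1 fit over all 43 libraries and 20218 genes, with Benjamini-Hochberg adjustment and calls at an adjusted p under 0.05. Comparisons were high-fat against standard diet, each SZ-A dose against high-fat, and a linear dose trend, given as the change from 0 to 600 mg/kg/day. Standard errors are the log2 fold change divided by the root of the F statistic. DESeq2 1.42.0 and limma 3.58.1 on log2(FPKM + 1) were alternatives, and the fit was tested on simulated data. The simulated data held neither library sets nor RNA of another tissue, so that test does not bear on calls that depend on them. Total counts of 32716294 to 44259619 limit precision for genes under about 1 CPM.

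A library was taken to hold RNA of another tissue where at least 100 genes had at least 10 CPM and over 20 times the median (floor 0.05 CPM). Both this and the library sets were read from the data, not the labels. Members and gene lists were chosen with earlier results of these data known. Described with values were members called in any comparison, members with a mean of at least 10 CPM in a group, and a fixed list of ligands and receptors. From each pathway list, the 2 strongest called rises and falls by p were named, with Pf4, Ppbp and Ccrl2. The values of 1 tested member are not reported here, though it stays in the counts. Promoters came from RefSeq GRCm38.p6 windows. Figures were drawn with matplotlib 3.10.9 in Python 3.11.15.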

Additional observations from a re-analysis of the deposited data

Results flagged for a closer look

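In 18 of 105 checks of 21 called genes in 5 groups, 1 library stood apart from the rest of its group in normalised CPM by Dixon's criterion. The criterion flags about 1 in 20 groups where levels are normally distributed. It was used here on untransformed normalised CPM, so the number to expect by chance is not known. Every flagged value was the highest of its group. The flagged values lie in 13 libraries, 5 of them in standard-diet library 4: Ccl28 (73.5), Cxcl16 (34.9), Ccr1 (10.8), Ccr7 (5.28) and Cxcr5 (2.85), each the highest of its group. Ccl28 also stood apart in SZ-A 600 library 6 (84.1).

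Cxcr5 stood apart in high-fat library 7 (13.7), SZ-A 200 library 8 (4.98) and SZ-A 400 library 5 (2.06), and Ccr7 in SZ-A 200 library 8 (11.5). Cxcl14 stood apart in SZ-A 200 library 7 (24.2), SZ-A 400 library 3 (93.1) and SZ-A 600 library 1 (20.4). The others were Ccl7 in high-fat library 2 (31.2), Cxcl10 in high-fat library 10 (17.8), Ccl8 in SZ-A 400 library 2 (38.2), Ccl27a in SZ-A 400 library 6 (10.3) and Ccr3 in standard-diet library 7 (0.867).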

How the results depend on the processing

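Main counts of called members were 17 (diet), 0, 1 and 9 (SZ-A 200, 400 and 600) and 12 (trend). Library set 2 alone gave 0 for diet, SZ-A 400, SZ-A 600 and the trend. Without the libraries with RNA of another tissue, set 2 gave 5, 0, 0 and 0. SZ-A 200 gave 1 call when only its groups were fitted, and 1 without other-tissue libraries with the set as a term. SZ-A 400 gave 0 without a filter, without other-tissue libraries (also with the set as a term), in set 1, when only its groups were fitted and with limma, and 3 with the set as a term. SZ-A 600 gave 4 without a filter and 5 with limma. Leaving out 1 library at a time gave 14 to 20, 0 to 0, 0 to 4, 2 to 13 and 4 to 14. Ccl28 turned sign at SZ-A 600 and in the trend: -0.25 and -0.19 without other-tissue libraries, -0.26 and -0.19 with the set as a term too, -0.46 and -0.40 in set 1, -0.22 and -0.090 with DESeq2, and -0.21 and -0.089 without SZ-A 600 library 6. Leaving out 1 library at a time gave Ccl28 from -0.21 to 2.83 at SZ-A 600 and from -0.089 to 2.65 in the trend. The causes were not tested, and each set also holds fewer libraries than the full fit. Upper-quartile factors moved the median of all genes for diet from -0.05 to -0.17 and split the calls 15 higher and 4 lower. Same-numbered libraries of the high-fat group and of the standard-diet, SZ-A 200, 400 and 600 groups correlated over 0.1 in 3 of 7, 6 of 9, 6 of 8 and 7 of 9 pairs. The own number gave the highest correlation in 1, 3, 1 and 1 of them. In the high-fat and SZ-A groups, numbers 1 to 5 are also library set 1, so these values cannot decide whether replicate numbers pair the libraries. The fit with the replicate block called 23, 0, 1, 10 and 14 members.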
